A study of Mus musculus with 12 samples.

Results

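The 4 libraries described here were made from the cortex of newborn mice (postnatal day 0) whose genotype the labels give as control, with no further allele or Cre named. They were taken by their sample titles, control 1 to control 4, and are 4 of the 12 libraries in the series. The other 8 are labelled as carrying deletions of both H3f3a and H3f3b, the genes of the replacement histone H3.3. In 4 of those (dKO-N) Neurod6-Cre drives the deletion and in 4 (dKO-E) Emx1-Cre does. All 12 came from fresh cortex lysed in trizol, as total RNA depleted of ribosomal RNA and made into libraries by ClickSeq, in which sequencing adapters are attached by click chemistry. The values were deposited as whole counts per gene. The account below describes which genes, gene classes and cell type markers the control cortex held and how far the 4 libraries differed, and it compares no gene between genotypes apart from a check of H3f3a and H3f3b against the labels. Separate animals are not named for the 4 libraries, so the p-values below measure only the spread between these libraries.

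At birth the mouse cortex has finished making most of its excitatory neurons. Radial glia, the stem cells of the cortical wall, first give rise to intermediate progenitors and to neurons of the deep layers, then to neurons of the upper layers, and afterwards turn to making astrocytes and oligodendrocyte precursors. Inhibitory interneurons arrive by migration from the ventral forebrain, and myelin, most synapses and the ciliated lining of the ventricles form largely after birth. Neuronal genes for adhesion, synapses and channels are often very long, and total RNA holds unspliced transcripts beside mature messages.

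The libraries held 3083599 (control 1), 1974975 (control 2), 2430299 (control 3) and 1996106 (control 4) counts assigned to genes, which together were 40.2% of the gene counts of all 12 libraries. A count of 3, the floor used below, corresponded to between 1.01 and 1.5 CPM (counts scaled to library size), so levels near that value rest on a handful of counts. Over the 10793 genes with a mean of at least 10 counts, log2(CPM + 1) of any pair of libraries correlated across genes with a Pearson r of 0.978 to 0.980. Genes are not independent replicates, so these r values describe likeness and no more. Every pair differed by more than sampling of counts allows, with a chi-square per degree of freedom of 1.61 to 2.75, so all 4 were counted as separate libraries. All 4 held the X-inactivation RNA Xist at 1059 to 1188 CPM.

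H3f3a (chr1:180800832-180813943, minus strand, mm10), one of the pair of genes deleted in the other libraries, did not follow the control label in 2 of the 4 libraries. On library totals its level was 16.2 CPM in the library labelled control 1, 111 in control 2, 15.6 in the library labelled control 3 and 117 in control 4. In the 8 libraries labelled as knockouts it lay between 21.4 and 37.4 CPM, so the libraries labelled control 1 and control 3 were below every one of them. H3f3b, the other gene for the same protein, went the opposite way, with 111 and 136 CPM where H3f3a was low (control 1 and control 3) and 72.9 and 81.7 where it was high. In the libraries labelled as knockouts H3f3b lay between 106 and 148 CPM (dKO-N) and between 172 and 184 (dKO-E). All of these were above control 2 and control 4, so H3f3b counts did not fall with the knockout label, and why was not tested. The related gene H3f3c had 0 to 3 counts per library. The names control 1 and control 3 below mean the libraries so labelled. The mean of control 2 and control 4 lies within 1 SD of the mean over the 4 libraries by arithmetic, whatever the values. The sums of the 40 cell type and function lists below were therefore not judged by that measure, and most are given for each library. Counts of variable genes are given with and without control 1 and control 3.

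The highest level per exonic kilobase (kb) among genes of at least 200 bases of exon belonged to a small structural RNA that shares sequence with another, and both sequences are printed because they limit which gene a read can be assigned to. Rn7sk is the 7SK RNA, which holds the elongation factor P-TEFb in an inactive complex, and Gm24447 is an annotated copy related to it. The sequences are the first 300 bases of GENCODE M21 transcripts on mm10 (GRCm38), and coordinates are those of the whole genes. The capitals mark the first 241 bases, which are identical in Gm24447 (chr15:93234363-93234700, plus strand) and Rn7sk (chr9:78175303-78175633, minus strand).
Gm24447: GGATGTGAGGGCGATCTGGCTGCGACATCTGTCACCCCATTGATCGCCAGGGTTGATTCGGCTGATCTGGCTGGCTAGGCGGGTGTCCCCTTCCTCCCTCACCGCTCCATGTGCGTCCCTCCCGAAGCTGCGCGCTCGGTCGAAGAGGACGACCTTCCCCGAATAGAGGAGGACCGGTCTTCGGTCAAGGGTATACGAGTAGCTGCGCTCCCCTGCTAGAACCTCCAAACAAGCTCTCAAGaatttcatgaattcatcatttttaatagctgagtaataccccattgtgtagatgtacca
Rn7sk: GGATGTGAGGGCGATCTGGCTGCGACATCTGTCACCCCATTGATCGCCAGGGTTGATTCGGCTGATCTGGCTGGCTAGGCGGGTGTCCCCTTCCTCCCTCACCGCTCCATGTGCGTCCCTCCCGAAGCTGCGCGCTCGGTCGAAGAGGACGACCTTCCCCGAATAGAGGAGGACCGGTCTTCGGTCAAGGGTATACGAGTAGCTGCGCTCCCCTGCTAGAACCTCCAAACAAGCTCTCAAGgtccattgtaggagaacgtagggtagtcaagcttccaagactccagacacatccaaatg
Over the whole alignment of these RNAs 289 of 345 columns were identical, 83.8%.

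Counts on these copies were far from equal. Gm24447 stood at 1051, 1858, 2094 and 1699 CPM in control 1 to control 4, and Rn7sk at 70.5, 98.2, 81.7 and 77.2. Per exonic kb the means were 4957 ± 1322 and 247 ± 35.6 CPM (SD, n = 4). Reads from the shared stretch cannot be told apart by sequence, so the level of either gene is uncertain and how the counts were divided between copies was not tested.

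A second limit on the levels was where a gene lies. Of 434 protein-coding genes that lie wholly inside another gene on the same strand, 429 (98.8%) had no count in any control library and 1 was detected, meaning at least 3 counts in all 4. Even among the 235 of these whose exons touch no exon of the gene around them, 234 (99.6%) had no count. Of 723 protein-coding genes that lie inside a gene on the opposite strand only, 341 (47.2%) had no count and 194 (26.8%) were detected. Of 12146 that overlap no gene, 38.6% had no count and 42.3% were detected. A count of 0 for a gene inside a same-strand gene is therefore not a level here. One surrounding gene was Gm20388 (chr8:119910841-124345722, plus strand), a read-through annotation of 4435 kb that held 91.4, 102, 117 and 109 CPM, while all 36 protein-coding genes inside it had no count, the neuronal tubulin Tubb3 among them. The stem cell factor Sox2 lies inside Sox2ot, which held 839, 612, 750.0 and 603 CPM. Neurod1, a factor of newborn neurons, lies inside Cerkl, and Pou3f3, a factor of upper-layer neurons, inside AC122898.1. Of the 69 protocadherins, cell adhesion genes that cluster in long shared units, 56 lie inside a same-strand gene and had no count, and 11 of the other 13 were detected.

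The control cortex held 12233 genes at 3 counts or more in all 4 libraries, 23.6% of those annotated, and 30934 genes had no count in any. Of 21857 protein-coding genes 11321 (51.8%) were detected. Protein-coding genes took 95.5 ± 0.0641% of the gene counts (SD, n = 4) and long noncoding RNAs 3.18 ± 0.0728%. Genes of the mitochondrial genome took 0.800, 0.721, 0.666 and 0.725% in control 1 to control 4. Small structural RNAs took 0.149% in control 1, with an exact 95% binomial interval of 0.145 to 0.154%, against 0.264, 0.275 and 0.251% in control 2 to control 4, so control 1 was the lowest library for this class. Intervals and floors here cover counting error only.

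Counts concentrated in long genes. The 2818 genes of 100 kb or more were 5.43% of the annotation and held 59.4 ± 1.29% of the gene counts (SD, n = 4), between 58.2 and 61.2% in each library. The 238 genes of 500 kb or more, 0.458% of the annotation, held 23.4 ± 0.787%. Genes under 10 kb, 65.3% of the annotation, held 6.73 ± 0.374%. The relation held among genes of like exonic length. For detected protein-coding genes with 3 to 5 kb of exon, the median went up with whole-gene length from 10.7 CPM (669 genes under 10 kb) to 20.01 (2256 genes of 10 to 100 kb), 52.6 (277 genes of 100 to 500 kb) and 399 (24 genes of 500 kb or more). Per kb of whole gene the same medians went the other way over the first 3 classes, at 1.63, 0.820, 0.295 and 0.428 CPM. Levels compared between genes below are therefore given per exonic kb, and the medians and orders of the main lists and genes per whole-gene kb as well.

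**Figure D1:**
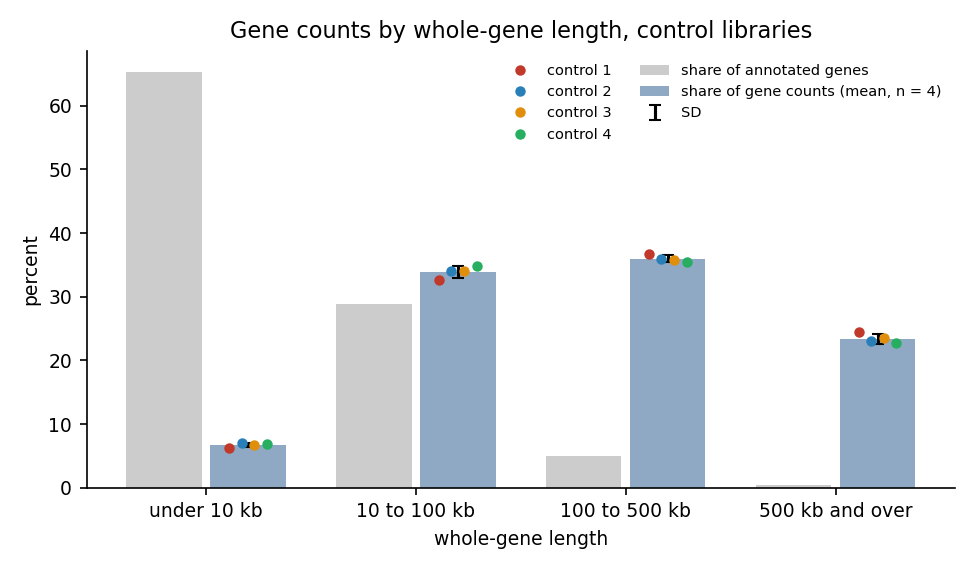
Share of annotated genes (grey bars) and mean share of gene counts (blue bars, error bars SD, n = 4) in 4 classes of whole-gene length, with 1 point per control library, in percent. Genes of 100 kb or more are few and hold over 58% of the counts in every library, and control 1 is the highest of the 4 in both long classes.

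The 10 most counted genes held 6.09% of the gene counts, the 100 most counted 24.3% and the 1000 most counted 60.1%. Of the top 100, 91 were in the top 100 of each library taken alone, 94 were protein-coding, and 92 were at least 100 kb long. Ptprd, a receptor phosphatase of synapses, led with 11142, 9606, 10098 and 9363 CPM. Celf2, an RNA-binding splicing regulator, followed with 9241, 8144, 8442 and 7718 CPM. Tenm2, an adhesion protein of neurons, stood at 7649, 6581, 5637 and 6500.1 CPM, and the adhesion protein Lsamp at 6539, 5838, 5642 and 5653. Frmd4a had 5820.3, 5772, 5419.7 and 5185. Rbfox1, a splicing factor of neurons, had 5366, 5497, 5797 and 5395 CPM. Opcml, the growth factor Nrg3 and the transcriptional regulator Auts2 were also among the 10, between 4666 and 4930.2 CPM on average. All 10 are longer than 500 kb, and each held 9.31 CPM per whole-gene kb or less.

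Scaling by length brought other genes forward. Per exonic kb the mitochondrial rRNA mt-Rnr2 stood at 1932 ± 365 CPM (SD, n = 4), mt-Co1, a subunit of cytochrome oxidase, at 1347 ± 56.8, and Rbfox1 at 1253 ± 44.7. Malat1, a nuclear long noncoding RNA with little intron, held 4755, 4376, 4527 and 4116 CPM and 636 CPM per kb on either scale. Tubb2b and Tuba1a, tubulins of growing neurons, had 657 ± 69.0 and 496 ± 72.3 CPM per exonic kb and kept 405 and 231 per whole-gene kb, while Rbfox1 dropped to 3.61. Marcksl1, which binds actin and membrane in growing processes, kept 268 CPM per whole-gene kb, the ribosomal protein gene Rplp1 236 and actin, Actb, 234. Of the 15 genes leading per exonic kb, 7 were also among the 15 leading per whole-gene kb.

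Markers of excitatory cortical neurons were detected on the list of every layer, though the layer 5 and subplate sums rested largely on shared genes. Summed over its members, the upper-layer list held 7351, 6905, 6689 and 6503 CPM, with 18 of 19 members detected. The list of newborn excitatory neurons (12 of 15 detected) summed to 6430.2, 6111, 6319 and 5719 CPM. That of layer 6 (14 of 14) summed to 6442, 6095, 5963 and 5942, and that of layer 5 (12 of 13) to 3575, 3306, 3324 and 3221. The subplate list (14 of 16) summed to 1762, 1691, 1754 and 1676. Some members are shared between lists, such as Sox5 and Hs3st4, so the sums are not parts of a whole. Sox5 made up 53.3% of the layer 5 sum, and Hs3st4, also on the layer 6 list, 63.4% of the subplate sum. The layer 5 marker Pcp4 had no count and lies inside no same-strand gene. The subplate members Nxph4 and Ccn2 had 3 to 8 counts per library and Cplx3 0 to 3, at or near the floor. The median member of the newborn list stood at 60.7 CPM per exonic kb, of the upper-layer list at 24.8, of layer 6 at 25.1 and of layer 5 at 8.37, against a median of 5.18 over all detected genes. The subplate median was 2.65, below that of all detected genes. Per whole-gene kb, where the median of all detected genes was 0.895 CPM, the newborn list stood at 6.51, the upper-layer list at 1.94, layer 6 at 1.79, layer 5 at 0.635 and subplate at 0.208. The layer 5 list was thus above all detected genes on the exonic scale and below them on the other. Because the samples were whole tissue, fewer cells of a type and less RNA per cell cannot be told apart in these levels.

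Among single neuronal markers, Bcl11b, the factor of layer 5 neurons that project below the cortex, had 254, 195, 268 and 256 CPM and 29.98 ± 4.04 per exonic kb (SD, n = 4). Tle4, a corepressor of layer 6 neurons, had 433, 413, 377 and 372 CPM and 70.0 ± 5.09 per exonic kb. Per whole-gene kb Tle4 stood at 2.66 and Bcl11b at 2.61 ± 0.352 CPM, so Tle4 and Bcl11b were apart on the exonic scale and not on this one. Sox5, a factor of deep-layer and subplate neurons, reached 124 ± 8.29 CPM per exonic kb and 1.88 per whole-gene kb, and Unc5d, a netrin receptor of migrating neurons, 121 ± 6.82 and 1.94. Sox11, a single-exon gene active in newborn neurons, kept 83.5 CPM per kb on both scales, with 702, 703, 699.7 and 671 CPM. Neurod6, whose promoter drives the Cre of one knockout line, had 130.2, 132, 147 and 124 CPM. Emx1, whose promoter drives the other, had 15.5, 13.5, 14.9 and 19.9.

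Markers of inhibitory interneurons were also detected, and some of those of the transient Cajal-Retzius cells. The interneuron list summed to 5464, 4334, 4959.7 and 4196 CPM with 19 of 20 members detected. Erbb4, a neuregulin receptor, made up 42.8% of that sum, with 2403, 1794, 2195 and 1722 CPM. Adarb2, a marker of interneurons from the caudal ventral forebrain, had 1403, 1133, 1149.8 and 1106. Both were highest in control 1, as was the list. The short gene of the neuropeptide Npy had 25.6, 37.1, 32.6 and 23.3 CPM and 52.4 ± 11.2 per exonic kb (SD, n = 4), or 4.36 per whole-gene kb. The Cajal-Retzius list (9 of 13 detected) summed to 550.4 ± 37.7 CPM, of which Reln, the secreted guide of neuronal layering, made up 68.9%. Interneurons make Reln too. The median Cajal-Retzius member stood at 1.44 CPM per exonic kb and 0.124 per whole-gene kb, below all detected genes (5.18 and 0.895). The interneuron medians were above them, at 5.82 and 1.96. Among other Cajal-Retzius members, Lhx1 had 0, 0, 3 and 1 counts, Lhx5 5, 2, 6 and 0, and Trp73 26, 23, 20 and 7.

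Most progenitor markers were detected. The radial glia list (15 of 18 detected) summed to 1521, 1467, 1449 and 1312 CPM, with a median member at 3.75 CPM per exonic kb and 1.04 per whole-gene kb. Radial glia were thus below the median of all detected genes (5.18) on the first scale and above it (0.895) on the other. Ptprz1, a receptor phosphatase of radial glia and oligodendrocyte precursors, made up 56.7% of it, and the fatty acid carrier Fabp7 had 58.0, 49.1, 46.2 and 35.0 CPM. Both were lowest in control 4, and neither passed the test of spread beyond the trend given below. The intermediate progenitor list (7 of 11 detected) summed to 47.6, 52.6, 48.7 and 71.4 CPM. Eomes, its defining factor, had 7.42, 10.0, 5.36 and 11.2 CPM and Insm1, a zinc finger factor of newly committed cells, 12.1, 12.5, 10.7 and 20.4. The cell cycle list had 24 of 31 members detected and summed to 359, 374, 303 and 292 CPM, with a median member at 1.19 CPM per exonic kb and 0.337 per whole-gene kb. Mki67, a protein of dividing cells, had 48.2, 53.6, 39.2 and 45.6 CPM.

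Markers of glial precursors were detected and mature myelin was nearly absent. The oligodendrocyte precursor list (10 of 11 detected) summed to 978, 1040.4, 1058 and 1098 CPM, led by the matrix protein Tnr at 59.9% of the sum. The list of myelinating oligodendrocytes had 3 of 12 members detected and summed to 46.9, 53.6, 47.4 and 44.2 CPM. Mbp, a major myelin protein, made up 80.6% of that with 35.1, 43.1, 38.8 and 37.9 CPM. The myelin genes Mog, Opalin, Cldn11 and Aspa had no count, and none of these 4 lies inside a same-strand gene. The astrocyte list (11 of 14 detected) summed to 594, 530.0, 551 and 539 CPM. The median member of the precursor list stood at 3.04 CPM per exonic kb and of the astrocyte list at 3.71. Per whole-gene kb the same medians were 0.724 and 0.474. All were below the medians of all detected genes (5.18 and 0.895). Slc1a2, a glutamate transporter, had 183, 149, 164 and 161 CPM, and the matrix protein Sparcl1 105, 115, 106 and 114. S100b, often used as an astrocyte marker, had no count, which allows at most 1.01 to 1.5 CPM per library.

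Cells of vessels, immunity and blood left small sums, which are not scaled for gene length. The median gene of the endothelial list is 36.1 kb long and of the microglia list 6.42 kb, against 111 kb for the upper-layer list. Endothelial markers (12 of 14 detected) summed to 116, 113, 109 and 109 CPM, with the tight junction gene Cldn5 at 8.43, 6.01, 6.60 and 9.71. Mural cells (5 of 11) summed to 62.1, 67.1, 69.7 and 76.2 CPM, and meninges and fibroblasts (3 of 13) to 64.4, 69.1, 58.6 and 78.2. Microglia and macrophages (5 of 16) summed to 26.0, 26.5, 30.9 and 32.0. Cx3cr1, the fractalkine receptor of microglia, had 3.71, 3.51, 7.01 and 6.80 CPM. Red blood cell genes (4 of 9) summed to 34.7, 54.1, 44.6 and 37.4 CPM, with Hba-a1, an adult globin chain, at 22.6, 37.1, 26.8 and 22.8. Hba-a1 shares sequence with Hba-a2, so the split between them is uncertain. Per exonic kb the median member stood at 1.83 CPM for endothelium, 0.549 for mural cells and 0.119 for meninges and fibroblasts. For microglia and macrophages it was 0.553 and for red blood cells 0.498, all below the median of all detected genes (5.18).

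**Figure D2:**
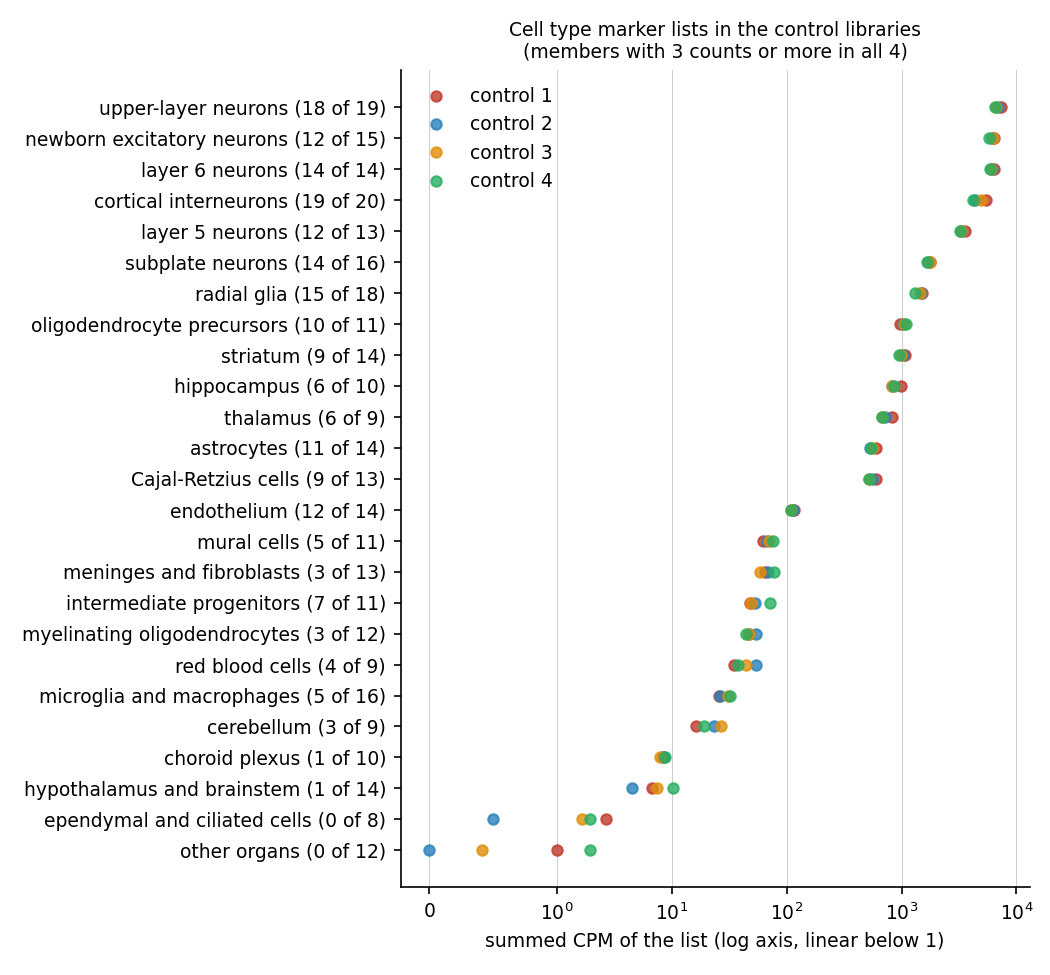
Summed CPM of each of 25 cell type and region marker lists in each control library (log axis, linear below 1), with the number of members detected in all 4 libraries. The upper-layer, newborn, layer 5, layer 6 and interneuron lists lie above 3000 CPM in every library, vessel, blood and microglia lists at 116 or below, and ependymal and other-organ lists below 3. The sums are not scaled for gene length or number of members.

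The tissue label was checked against markers of neighbouring regions and other organs. The 12 markers of other organs summed to 1.01, 0, 0.413 and 1.94 CPM and none was detected. The choroid plexus list summed to 8.38 ± 0.385 CPM (SD, n = 4), of which Enpp2 made up 87.2%, and Ttr, the defining gene of that tissue, had no count. Ependymal markers summed to 1.70 CPM on average, hypothalamus and brainstem to 7.22 and cerebellum to 21.4. The striatum list (9 of 14 detected) summed to 1081, 1023, 999 and 956 CPM, with Foxp1 at 46.0% of it, a factor that cortical neurons of layers 3 to 6 also make. The phosphodiesterase Pde10a, abundant in striatal neurons, had 471, 427, 453 and 398 CPM, and with Foxp1 it made up most of the sum. The median member of the striatum list stood at 0.946 CPM per exonic kb and 0.154 per whole-gene kb. Both were below the medians of all detected genes (5.18 and 0.895). The thalamus list rested on the nuclear receptor Rora, 85.8% of its sum, and the hippocampus list on Zbtb20, 72.3%, and both genes are known in cortex as well. Hox genes, which mark the hindbrain and spinal cord, had no count in any of 39 members. Of these, 8 lie inside a same-strand gene and were not measured, and for the others a count of 0 allows at most 1.01 to 1.5 CPM in a library.

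Most genes on the lists of neuronal function were detected. All 39 members of the cell adhesion and axon guidance list were detected, with summed CPM of 54321, 48693, 49794 and 47321 and a median of 61.1 CPM per exonic kb and 1.47 per whole-gene kb. The tubulin, stathmin and microtubule list (19 of 20) summed to 17662, 17864, 16603 and 16711 CPM with medians of 107 and 10.4. The pan-neuronal list (17 of 20) had medians of 69.5 CPM per exonic kb and 3.73 per whole-gene kb. Ncam1, a neural adhesion molecule, stood at 241 ± 12.8 and 7.05, and Gap43, a protein of growth cones, at 152 ± 11.2 (SD, n = 4) and 2.52. All 22 vesicle release genes were detected, led by the calcium sensor Syt1 at 1456, 1188, 1255 and 1112 CPM. The list of 38 cortical and neuronal transcription factors had 36 detected and medians of 34.7 CPM per exonic kb and 5.03 per whole-gene kb, above the adhesion list on the second scale and below it on the first, with Myt1l, a neuronal repressor of other fates, at 2277, 2157, 2113 and 1979 CPM. Immediate early genes were low, with 5 of 14 detected and 65.0% of their 54.1 ± 8.28 summed CPM on Jun. Egr1, induced by neuronal activity, had 3.37, 2.00, 4.54 and 5.83 CPM.

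Imprinted genes, expressed from 1 parental copy, had 22 of 25 members detected, among them the long noncoding RNA Meg3 at 880.1, 789.9, 1010.3 and 902 CPM and Nnat, a neuronal membrane protein, at 251, 284, 278 and 236. Per exonic kb Nnat stood at 143 ± 12.3 CPM and Meg3 at 49.5 ± 5.01 (SD, n = 4), and per whole-gene kb at 107 and 29.1, so their order turned on both scales once length was taken into account. Ribosomal protein genes (75 of 84 detected) summed to 3698, 4304, 4536 and 4033 CPM. Of 394 zinc finger genes named by number 308 were detected, and of 94 potassium channel genes 60. Olfactory receptors had 1 of 1134 detected and 1090 with no count, vomeronasal receptors 3 of 295 detected, and keratins and their associated proteins 1 of 110, which was Krt222.

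Pairs of genes known to be exchanged during maturation were compared within each library as ratios of CPM per kb. The NMDA receptor subunit Grin2b, typical of young synapses, exceeded Grin2a 6.38, 6.07, 5.93 and 6.30-fold per exonic kb and 7.64 to 8.21-fold per whole-gene kb. The chloride importer Slc12a2 exceeded the exporter Slc12a5 by 1.33, 1.5, 1.47 and 1.36 times, and by 1.12 to 1.26 times on the other scale. The early sodium channel Scn3a exceeded Scn1a by 2.77, 3.16, 2.40 and 2.11 times. Of the de novo DNA methyltransferases, Dnmt3a exceeded Dnmt3b by 4.43, 6.86, 7.01 and 7.03 times, and nothing on maturity is read from this pair. Of the CaM kinase subunits Camk2b exceeded Camk2a by 6.53, 7.04, 4.27 and 6.38 times. These 5 pairs kept the same order in all 4 libraries on both scales.

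Other pairs depended on the scale. The vesicular glutamate transporter Slc17a6 exceeded Slc17a7 by 2.35 to 2.92 times per exonic kb and was below it, at 0.583 to 0.727, per whole-gene kb. Dcx, a microtubule protein of migrating neurons, stood at 0.680 to 0.811 of Rbfox3, a marker of mature neurons, per exonic kb and at 8.04 to 9.60 times it per whole-gene kb. The AMPA receptor pair Gria2 and Gria1 turned likewise, from 0.557 to 0.606 to 3.77 to 4.10. Kcnj6 over Kcnj10 turned from 3.34 to 3.92 to 0.622 to 0.730. No order can be stated for these 4 pairs. Nefm, a neurofilament subunit, exceeded Nefh, which had 2, 1, 2 and 0 counts and was set to the floor of 3 in each library, at least 20.5, 15.7, 11.5 and 10.1-fold. H3f3b over H3f3a was 8.08 and 10.2 in control 1 and control 3 and 0.771 and 0.820 in control 2 and control 4 per exonic kb, the one pair whose order on that scale differed between libraries, and 1.42 to 18.8 per whole-gene kb.

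**Figure D3:**
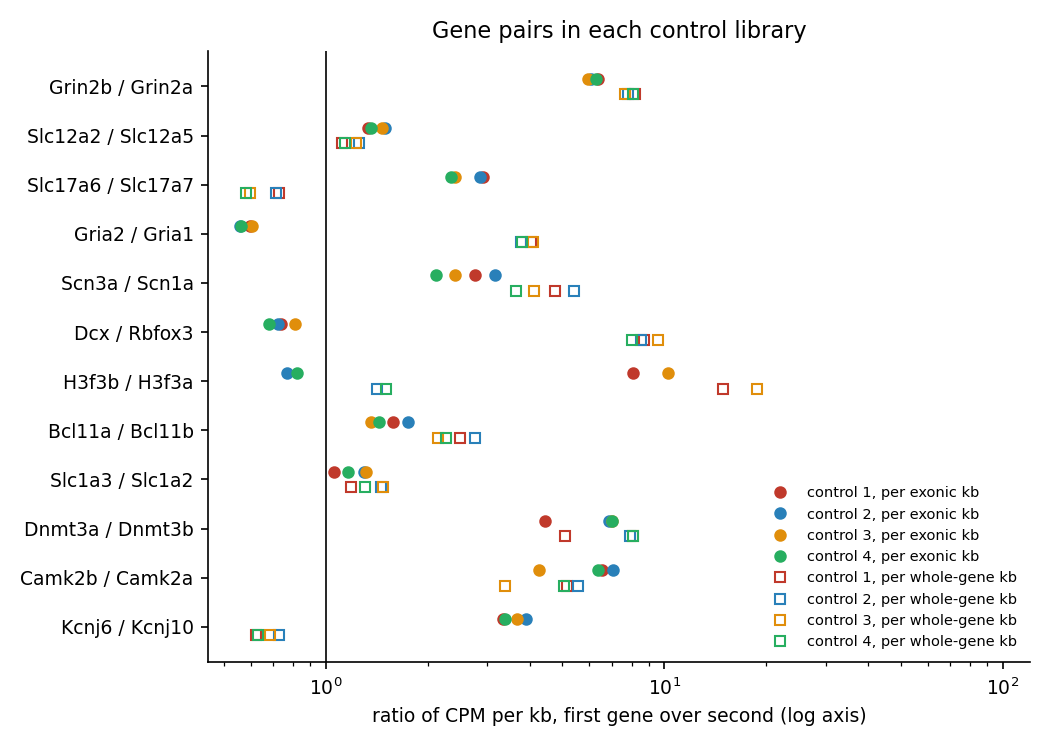
Ratio of CPM per kb of the first gene over the second for 12 pairs in each control library (log axis), per exonic kb (filled circles) and per whole-gene kb (open squares), with a line at 1. Circles and squares lie on opposite sides of the line for Slc17a6 over Slc17a7, Gria2 over Gria1, Dcx over Rbfox3 and Kcnj6 over Kcnj10, and H3f3b over H3f3a splits control 1 and 3 from control 2 and 4.

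For most genes the 4 libraries differed by little more than counting error. Among the 4157 genes with a mean of 100 counts or more, the median difference between any pair of libraries was 0.12 to 0.16 on the log2 scale, and 2 to 5 genes per pair differed by over 2-fold. By edgeR's goodness-of-fit test with Benjamini-Hochberg adjustment, 1075 of 10793 genes (9.96%) varied beyond counting error at an adjusted p under 0.05. That share was 3.81% at a mean of 10 to 100 counts, 14.0% at 100 to 1000 and 76.9% above, higher at higher counts. When the test allowed each gene the spread typical of its level, 36 genes (0.334%) varied beyond that trend, and their part by level was 12 genes (0.181%), 23 (0.609%) and 1 (0.262%). The common biological coefficient of variation was 7.96%. Without control 1 and control 3 the counts fell to 140 and 11, with 1 residual degree of freedom. Leaving out control 1 alone gave 463 beyond counting error, and leaving out control 2 or control 3 gave 23 and 17 beyond the trend.

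**Figure D4:**
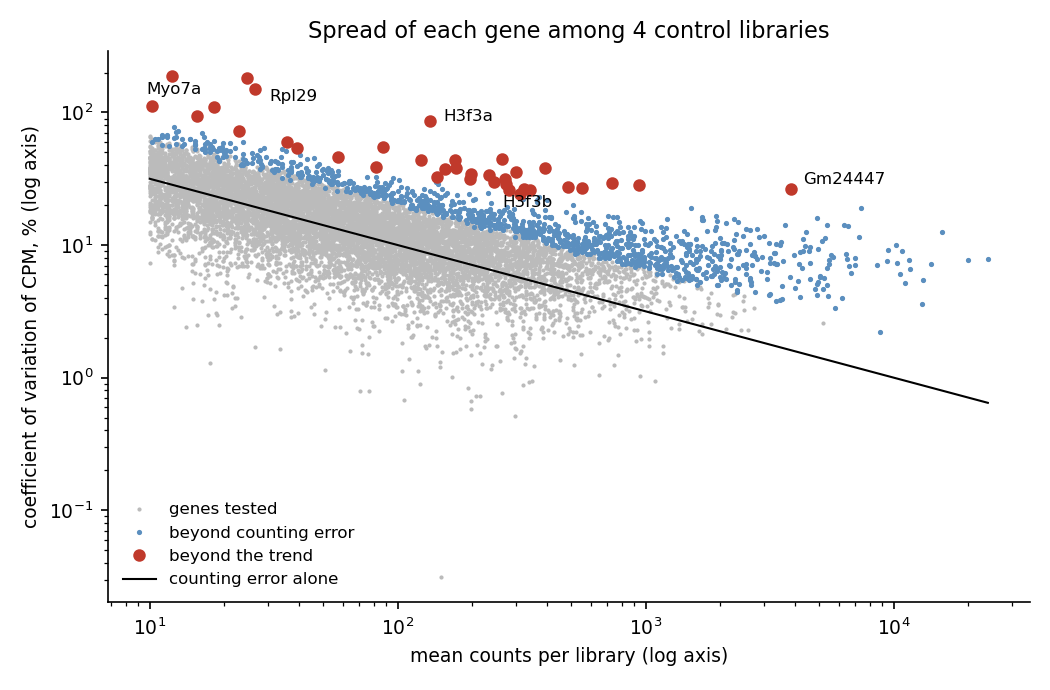
Coefficient of variation of CPM among the 4 control libraries against mean counts per library for 10793 genes (both axes log), with the line that counting error alone gives. The 36 genes beyond the trend (red) stand above the cloud at every level, and most genes at high counts lie above the line.

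Of 164 tested members of the cell type lists 43 varied beyond counting error (26.2%, against 9.96% of all genes, at higher counts) and 0 beyond the trend by edgeR's test, with 17 (10.4%, against 5.35% of all tested genes) below an unadjusted p of 0.05. Of 248 tested members of the function lists, 8 (3.23%, against 0.334% of all genes) varied beyond the trend. The lists were chosen with earlier results known, so nothing is read from that share. The 8 were H3f3a, H3f3b, Nrp2, Pantr1, Rasgrf1, Rpph1, Slit2 and Snhg11. By class the calls were 21 of 10224 tested protein-coding genes (0.205%), 5 of 15 small structural RNAs (33.3%) and 5 of 86 pseudogenes (5.81%). Control 3 was the highest library for 18 of them, control 1 for 8, control 4 for 6 and control 2 for 4.

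H3f3a varied most, at 16.9, 110.2, 15.7 and 114 CPM (adjusted p = 1.67e-43, edgeR), with control 1 and 3 low and control 2 and 4 high. H3f3b split the same libraries the opposite way, at 116, 72.1, 136 and 79.1 CPM (adjusted p = 0.00237). Myo7a, a myosin of sensory hair cells, had this split too, at 15.2, 0.501, 10.7 and 0.486 CPM (adjusted p = 9.31e-08). With control 2 and 4 alone neither H3f3a nor H3f3b passed the test and Myo7a fell below the minimum of 10 counts. The call on H3f3b was also lost without control 2 or without control 3 (adjusted p = 0.272 and 0.427, edgeR). Further genes beyond the trend had control 1 and 3 both above control 2 and 4, such as Il1rapl2, given below. Pid1 had 130, 79.6, 148 and 90.8 CPM (adjusted p = 0.00283, edgeR). Thsd7a had 225, 143, 264 and 168 CPM (adjusted p = 0.000561, edgeR). The calls on Pid1 and Thsd7a were likewise lost without control 2 or without control 3.

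Other genes stood out in 1 library. The ribosomal protein gene Rpl29 had 2.02, 41.6, 4.13 and 3.40 CPM and was high in control 2. Sbno1, a helicase-like regulator, had 175, 74.6, 90.3 and 82.5 CPM and was high in control 1, as was Gm47283 at 187, 99.7, 102 and 98.1. Gm47283 is annotated at chrY:90784738-90816464, while the Y genes Ddx3y, Eif2s3y, Kdm5d and Uty had 0 to 2 counts per library. Whether the Gm47283 counts came from the Y chromosome was not tested. The unannotated ENSMUSG00000092267.1 had 0.337, 1.5, 38.4 and 0.971 CPM and the rRNA-type gene CT010467.1 had 0.337, 0.501, 19.4 and 0, both high in control 3. Mta1, a chromatin corepressor, had 23.6, 27.05, 33.4 and 69.4 CPM, and Pacs2, a sorting protein, 57.3, 70.6, 55.7 and 117. These neighbours lie 23.9 kb apart (chr12:113098278-113137206 and chr12:113014508-113074401, plus strand), and both were high in control 4. Without the library named, Sbno1, Gm47283, Mta1 and Pacs2 had an adjusted p of 1.00 and the other 3 genes fell below the minimum of 10 counts.

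The receptors Bmpr1b and Nrp2 differed by more than 2-fold between libraries. Bmpr1b, a bone morphogenetic protein receptor, had 229.7, 82.7, 160.5 and 161 CPM (adjusted p = 1.6e-09, edgeR), lowest in control 2, and 0.508 without that library. Nrp2, a semaphorin receptor of axons, had 57.0, 41.1, 115 and 74.8 CPM (adjusted p = 5.26e-07, edgeR), highest in control 3, and 0.461 without it. Il1rapl2, a synaptic receptor gene of 1276 kb, had 329, 199, 410.5 and 270.5 CPM, and its call was lost without control 2 (adjusted p = 0.536, edgeR) and without control 3 (0.0942).

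Several small and mitochondrial RNAs had control 1 at one end. Gm24447, at the levels given beside its sequence, was lowest in control 1 (adjusted p = 2.03e-06, edgeR), as were Gm23973 at 49.9, 97.7, 113 and 81.1 CPM (adjusted p = 0.000181) and Rpph1, the RNA of ribonuclease P, at 91.8, 132, 175 and 162 (adjusted p = 0.000939). The mitochondrial rRNA mt-Rnr1 went the other way, at 542, 382, 323 and 301 CPM, highest in control 1 (adjusted p = 9.46e-05). Its partner mt-Rnr2 was also highest there, at 3915, 2875, 2721 and 2716 CPM, and did not pass the test beyond the trend. Not all small RNAs beyond the trend had control 1 at one end. Gm23935, annotated as a microRNA gene, had 106, 136, 72.2 and 156 CPM and was lowest in control 3 (adjusted p = 9.46e-05, edgeR). CT010467.1, given above, was high in control 3. Without control 1 the adjusted p was 0.984 for Gm24447, Gm23973 and mt-Rnr1 and 0.963 for Rpph1, and Rpph1 was also lost without control 3 (0.0665).

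**Figure D5:**
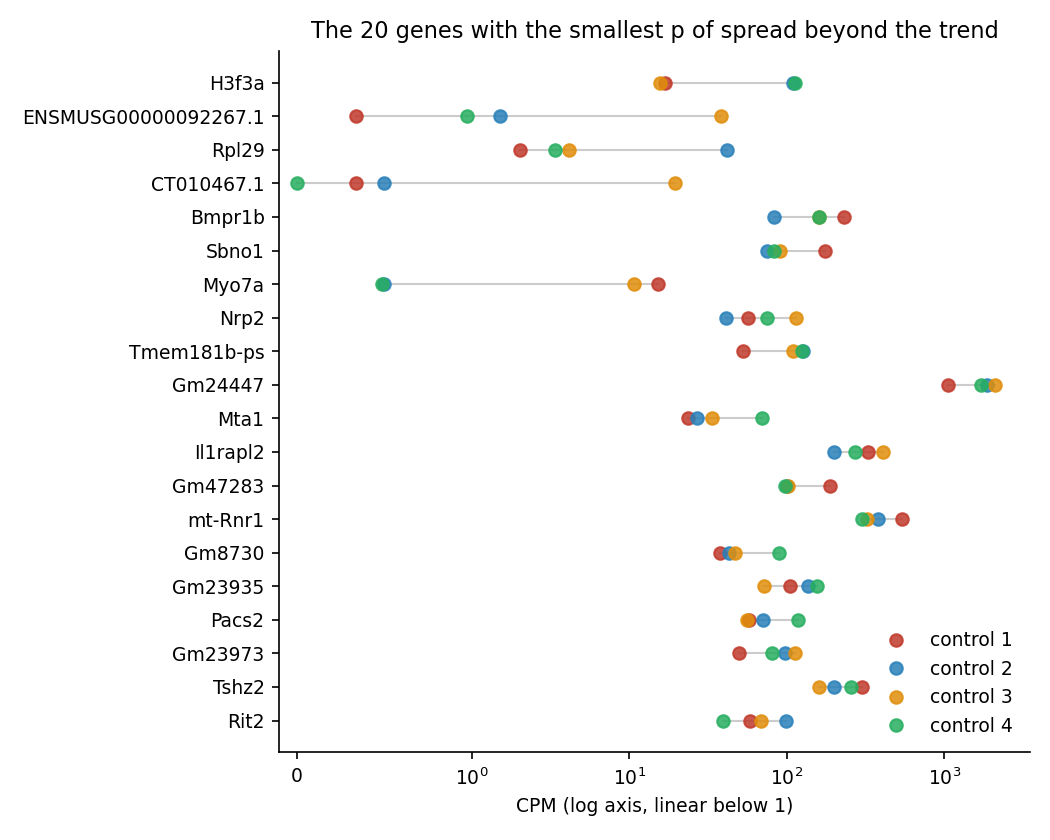
CPM of the 20 genes with the smallest p of spread beyond the trend in each control library (log axis, linear below 1), with a grey line over the range. H3f3a and Myo7a separate control 1 and 3 from control 2 and 4 in opposite directions. Some genes, such as Rpl29, Sbno1 and Gm47283, have 1 library apart from the other 3, and others, such as Tshz2, are graded over the libraries. Il1rapl2 is graded too, with control 1 and 3 both above control 2 and 4.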

How the data were processed

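The authors deposited 1 table of raw counts per gene and library. STAR, HTSeq and UMI-tools are named, with mm10, per the submitters' processing notes, while the sources used here give no version, annotation or counting option. Intron and strand handling was read from genes inside other genes (in the report). The 5 summary lines of each table were left out, which left 87.2 to 88.4% of a library's reads or molecules, those assigned to genes. No other per-sample column was present (0).

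IDs were matched to GENCODE M21 without version (51719 of 51912). Counts were scaled by TMM over the 4 control libraries (edgeR 4.0.16, R 4.3.3, factors 0.961 to 1.03). Spread was tested with edgeR's goodness-of-fit test of an intercept-only fit, 3 degrees of freedom, dispersion 0 or trended, over genes with a mean of at least 10 counts. On simulated counts with 200 varied genes among 10781 tested, the trended test recovered 42.1, 95.2 and 100% of genes varied 2, 4 and 8-fold, and 1.11% of its calls were false. Unvaried genes were drawn with exactly the trend spread that the test assumes, so the false share does not carry over to genes that scatter around it. Varied genes differed between a pair of libraries and the other pair, so genes with a single library apart were not simulated. Members and lists were chosen with earlier results of these data known. Genes were named as the 15 highest per scale, the 20 smallest p of spread, up to 4 members per list by CPM per exonic kb, fixed pairs, and markers at or near 0, while Krt222, Foxp1, Enpp2 and other list members outside this were chosen after their values were seen. Alternatives were other scalings (DESeq2 1.42.0 size factors, library totals), filters, dispersions and lengths, thinning to 1974975 counts, and leaving out libraries. Some items are not reported here.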

Additional observations from a re-analysis of the deposited data

Results flagged for a closer look

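Of 247 shares, list sums and named genes, 14 (5.67%) had 1 library farther from the other 3 than Dixon's 95% critical value allows. Chance flags about 1 in 20 groups of 4, but 20 of the genes were named for their spread and hold 5 of the flags, so the number cannot be read against that rate. All 14 were genes. Control 1 stood high for mt-Rnr2 (3915 CPM), Sbno1 (175), Gm47283 (187), Adarb2 (1403) and Dnmt3b (8.43), and low for Eef1a1 (651), a translation elongation factor. Control 2 stood high for Rpl29 (41.6 CPM) and low for the lipid transporter Mfsd2a (5.01) and the growth factor Igf2 (6.01). Control 3 stood high for ENSMUSG00000092267.1 (38.4 CPM), CT010467.1 (19.4) and Dnmt3a (132). Control 4 stood high for the neuropeptide gene Agrp (5.34 CPM) and low for Sox11 (671). Of these, Sbno1, Gm47283, Rpl29, ENSMUSG00000092267.1 and CT010467.1 also varied beyond the trend by edgeR's test.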

How the results depend on the processing

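Most values moved by less than the spread between libraries under the alternatives run. All mean CPM and list sums did so under both other scalings. The factors of each scaling centre on 1, so a mean over the 4 libraries can hardly move, and nothing is read from that. When libraries are left out, mean CPM and list sums cannot move by more than that spread, so nothing is read from those runs for them. Protein-coding genes held 96.2% of counts when mitochondrially encoded genes were left out, and genes of 100 kb or more held 61.0% among protein-coding genes only. With whole-gene length, 7 of the 15 leading genes per exonic kb remained, and 4 pairs turned, to 0.650 for Slc17a6 over Slc17a7, 3.93 for Gria2 over Gria1, 8.71 for Dcx over Rbfox3 and 0.664 for Kcnj6 over Kcnj10. Genes beyond counting error numbered 463 to 1062 with 1 library left out (463 without control 1) and 140 without control 1 and 3. Genes beyond the trend numbered 17 to 29 (23 without control 2, 17 without control 3) and 11, with fewer libraries fitted each time. Of the 36 genes beyond the trend, 0 were called under all 11 alternatives and 7 were called again without control 1 and 3. The depth of about 1974975 to 3083599 counts leaves levels below 1.01 to 1.5 CPM unresolved. Genes inside same-strand genes were not measured. No paired analysis was possible because no groups were compared.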
